A study of Homo sapiens with 18 samples.

Results

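The genes described here are 10 regulators and markers of the epithelial-mesenchymal transition (EMT): the cadherins CDH1 and CDH2, the intermediate filament gene VIM, and the transcription factor genes ZEB1, ZEB2, SNAI1, SNAI2, TWIST1, OVOL1 and OVOL2. They were taken by name and not by a rule on their values, though earlier results of these data were known. All 10 were found among the 58051 gene identifiers. RNA was sequenced from NCI-H460, an established large-cell lung cancer line with wild-type genotype per the labels, in 3 populations: the parental cells and 2 populations resistant to decitabine with all-trans retinoic acid (ATRA), here resistant 1 and resistant 2. Cells of each population were given either vehicle, DMSO at 0.7% by volume, or a combination of 2 µM ATRA and, per the labels, 50 µM decitabine, and were lysed for RNA 48 h later. That made 6 groups of 3 libraries labelled as biological replicates. The labels do not say whether a resistant population was 1 clone or whether replicates came from separate cultures, so p-values measure the spread between these libraries. All libraries come from 1 cell line.

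In EMT, epithelial cells lose E-cadherin, the calcium-dependent adhesion protein of their junctions encoded by CDH1, and gain N-cadherin (CDH2) and the filament protein vimentin (VIM). The zinc finger proteins ZEB1, ZEB2, SNAI1 (Snail) and SNAI2 (Slug) and the basic helix-loop-helix protein TWIST1 are known to drive this change, and ZEB and SNAI proteins repress CDH1 by binding E-box motifs in its promoter. OVOL1 and OVOL2 are zinc finger repressors that hold cells in the epithelial state, and OVOL2 is known to repress ZEB1. Retinoic acid acts through nuclear receptors that bind DNA, and decitabine traps DNA methyltransferases and so lowers DNA methylation.

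Reads recovered from the DMSO libraries totalled 116.9 to 140.9 M each. For treated libraries, counting only genes with a restored value, the totals were 113.9 to 177.6 M. Within a treatment, levels are normalized counts, which the authors scaled separately for each treatment. Levels across treatments are CPM, counts per M reads scaled jointly over 18 libraries. Keratins of an epithelial line were abundant in every group: the 5 line markers KRT8, KRT18, KRT19, KRT7 and EPCAM summed to 137174 to 436343 normalized counts in the DMSO libraries. EPCAM, an epithelial adhesion protein among them, was low, with group means of 93.5 (parental), 3.90 (resistant 1) and 3.88 (resistant 2) normalized counts. In the DMSO libraries, 9 fibroblast markers gave sums of 8082 to 10046 for parental, 493 to 557 for resistant 1 and 3494 to 4486 for resistant 2 libraries. The collagen gene COL3A1 averaged 6475 normalized counts in parental libraries, 28.2 for resistant 1 and 456 for resistant 2, and the proteoglycan gene LUM 1409, 58.5 and 41.1. COL1A1 averaged 820.5, 26.9 and 2195 and the receptor gene PDGFRB 621, 286 and 1167. Other markers of the list went the other way in resistant 1, with DCN at 21.8, 117.4 and 31.9 and PDGFRA at 0.68, 8.18 and 8.08. THY1 averaged at most 1.66 in any DMSO group and 588.6 in treated parental libraries. The 7 immune markers summed to 110.1 to 403.7 in the DMSO libraries. There the 6 endothelial ones summed to 70.9 to 90.9 for parental, 333 to 437.5 for resistant 1 and 143 to 270 for resistant 2 libraries. Under treatment, the 3 endothelial markers with a restored value summed to 214 to 224, 537 to 878 and 183 to 242. The part of other cell types in the results was not tested, and in bulk RNA fewer cells of a type and less RNA per cell cannot be told apart.

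VIM and ZEB1, which had the same direction in both resistant populations and in all responses to treatment, are shown by the 250 bases before a RefSeq start site (GRCh38.p14, 5′ to 3′). The motif searched was CAGGTG, an E-box bound by ZEB and SNAI proteins, on both strands, with capitals marking a match.
VIM, chr10:17227991-17228240, plus strand: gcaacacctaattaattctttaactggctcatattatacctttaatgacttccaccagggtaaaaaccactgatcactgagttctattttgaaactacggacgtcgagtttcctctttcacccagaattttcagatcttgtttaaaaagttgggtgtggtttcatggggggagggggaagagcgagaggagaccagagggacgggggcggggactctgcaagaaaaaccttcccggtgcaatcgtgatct
ZEB1, chr10:31318167-31318416, plus strand: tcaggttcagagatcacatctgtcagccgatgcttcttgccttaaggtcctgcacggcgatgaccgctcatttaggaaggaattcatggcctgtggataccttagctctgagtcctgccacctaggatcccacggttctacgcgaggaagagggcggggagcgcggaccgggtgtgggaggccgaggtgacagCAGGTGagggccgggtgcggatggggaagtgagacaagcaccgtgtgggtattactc
The VIM window holds no match and 8 CpG dinucleotides, and the ZEB1 window holds 1 match, starting 57 bases before the start site, and 15 CpG. Over 35116 windows of the same length, 17.5% hold the motif on either strand and the median is 11 CpG. The ZEB1 window shown is 1 of 7 RefSeq windows of that gene used here. Of the others, 5 hold no match and 1 holds 2. These and the windows of CDH2 and ZEB2, which hold no match, are not shown. A match is a description of the letters and not a measured binding site.

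**Figure D1:**
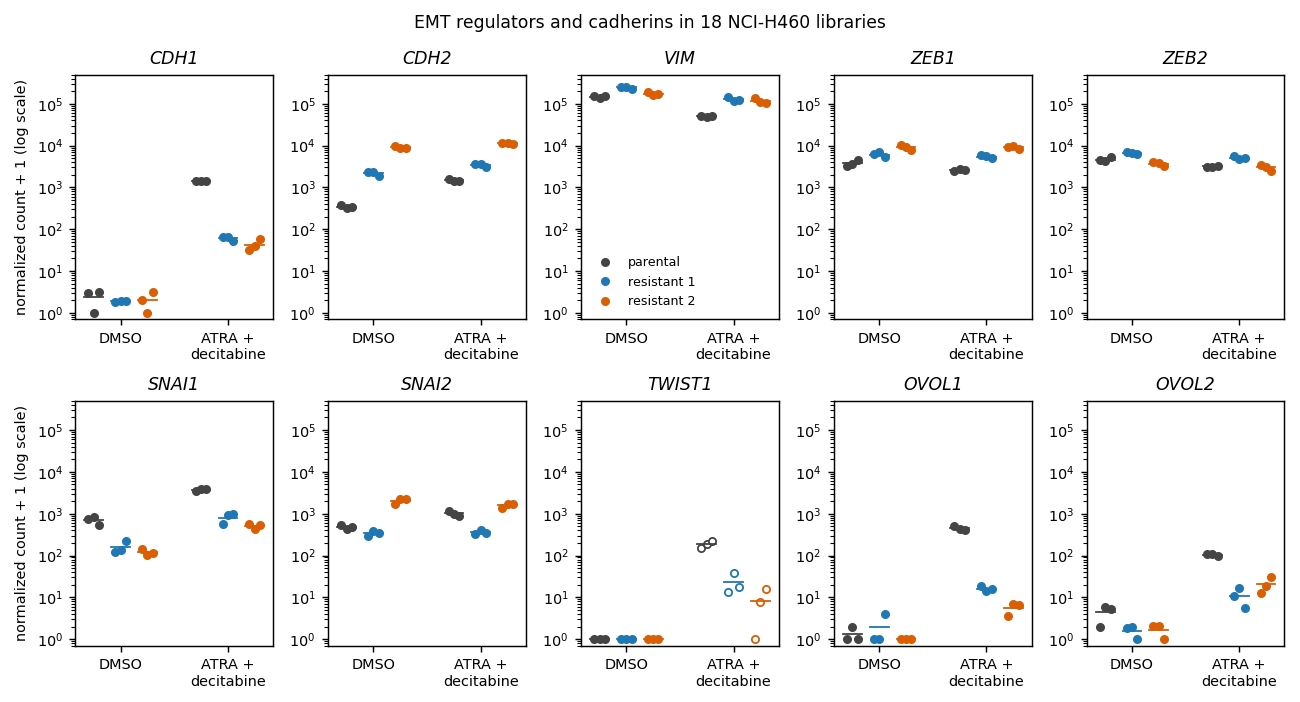
Normalized count + 1 on a log scale for each gene, with points for the 3 libraries of a group, short lines for group means, and open points for TWIST1 under treatment, whose values were not resolved. CDH2 stands in 3 separate steps in DMSO, whereas CDH1, OVOL1, OVOL2 and TWIST1 are at the bottom of the axis in DMSO and highest in treated parental cells.

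The first comparisons set each resistant population against the parental one in DMSO, with the drugs absent. The 2 comparisons share the parental libraries. Of the 10 genes, 6 passed the filter on low values, and all 6 were called in both comparisons, against 55.9% of all genes tested in resistant 1 (29.3% higher and 26.6% lower) and 61.9% in resistant 2 (32.1% higher and 29.8% lower). CDH2, ZEB1 and VIM were higher and SNAI1 lower in both. ZEB2 was higher in resistant 1 and lower in resistant 2, and SNAI2 was lower in resistant 1 and higher in resistant 2. The median log2 fold change of the 6 genes was 0.61 in resistant 1 and 0.77 in resistant 2, where that of all genes tested was 0.01 and 0.02. CDH1, TWIST1, OVOL1 and OVOL2 were below the filter.

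N-cadherin rose most in both resistant populations. CDH2 (ENSG00000170558, chromosome 18, 27950966 to 28177446, GRCh38) had 376, 314 and 333 normalized counts in the 3 parental libraries, 2351, 2378 and 1873 in resistant 1, and 9879, 8840.3 and 8594 in resistant 2. The 3 groups did not overlap, and the lowest resistant 1 library was well above the highest parental one. The log2 fold change was 2.68 ± 0.12 (SE) in resistant 1 (limma, adjusted p = 1.79e-08), which is 6.41-fold. In resistant 2 it was 4.74 ± 0.12 (limma, adjusted p = 2.24e-10), or 26.6-fold. Between the resistant populations CDH2 differed by 2.05 ± 0.12 (limma, adjusted p = 1.70e-07), resistant 2 being the higher.

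The 2 ZEB paralogues parted in resistant 2. ZEB1 (ENSG00000148516, chromosome 10, 31318495 to 31529814) had 3186, 3672 and 4426 normalized counts in parental cells, 6139, 6885 and 5236 for resistant 1, and 10484, 9434 and 7929 in resistant 2. Each group lay above the one before it. The log2 fold change was 0.70 ± 0.15 in resistant 1 (limma, adjusted p = 0.00208) and 1.31 ± 0.15 in resistant 2 (limma, adjusted p = 1.66e-05), and resistant 2 exceeded resistant 1 by 0.61 ± 0.15 (limma, adjusted p = 0.00518). ZEB2 (ENSG00000169554, chromosome 2, 144364364 to 144524583) had 4499, 4209 and 5243 in parental cells, 6898, 6791 and 6164 for resistant 1, and 4133, 3817 and 3181 in resistant 2. Resistant 1 was thus the highest group and resistant 2 the lowest, with no overlap. ZEB2 rose by 0.51 ± 0.12 in resistant 1 (limma, adjusted p = 0.00361) and was lower in resistant 2 than in resistant 1, with a log2 fold change of -0.84 ± 0.12 (limma, adjusted p = 0.000134). ZEB2 was also called in resistant 2 against parental, at -0.33 ± 0.12 (limma, adjusted p = 0.0331). This call was lost without any 1 of 4 libraries, namely parental replicates 1 and 3 and resistant 2 replicates 2 and 3 (limma, adjusted p = 0.0561 to 0.118). It was lost as well with the compared groups alone (limma, adjusted p = 0.0717).

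Within a library, the ZEB1 level per kilobase of exon was 2.05, 2.53 and 2.45 times that of ZEB2 in parental DMSO libraries. The ratio was 2.58, 2.94 and 2.46 in resistant 1 and 7.35, 7.16 and 7.22 in resistant 2. Parental and resistant 1 libraries overlapped in this ratio, and all resistant 2 libraries were above both. These ratios need no scaling between libraries. They do depend on the exon lengths used, the sum of all annotated exons, at 8650 bases for ZEB1 and 25058 for ZEB2. Before division by length, ZEB2 had the higher mean normalized count in parental (4650 against 3761) and resistant 1 libraries (6618 against 6087). In resistant 2, ZEB1 had the higher mean (9282 against 3711).

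The Snail paralogues moved apart in resistant 2 as well. SNAI1 (ENSG00000124216, chromosome 20, 49982999 to 49988886) had 742, 847 and 533 normalized counts in parental cells, 123, 136 and 218 for resistant 1, and 142, 104 and 115 in resistant 2. Every resistant library was below every parental one, and the resistant groups overlapped. SNAI1 fell in resistant 1 (-2.17 ± 0.25, limma, adjusted p = 2.50e-05) and in resistant 2 (-2.53 ± 0.25, limma, adjusted p = 5.37e-06). The difference between the resistant populations, -0.36 ± 0.25, did not pass the test (limma, adjusted p = 0.248). SNAI2 (ENSG00000019549, chromosome 8) had 544, 438 and 482 normalized counts in parental cells, 295, 380.3 and 339.9 for resistant 1, and 1717, 2198 and 2270.4 in resistant 2. Resistant 2 stood apart from both other groups. Its log2 fold change was 2.07 ± 0.15 against parental (limma, adjusted p = 5.74e-07) and 2.60 ± 0.15 against resistant 1 (limma, adjusted p = 1.48e-07). In resistant 1 the value was -0.53 ± 0.15 (limma, adjusted p = 0.0131), and this call was lost without parental replicate 1 (limma, adjusted p = 0.0559) or resistant 1 replicate 1 (limma, adjusted p = 0.0618).

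The ratio of SNAI2 to SNAI1 per kilobase was 0.364, 0.257 and 0.4496 in the parental DMSO libraries, 1.19, 1.39 and 0.774 in resistant 1, and 6.02, 10.5 and 9.81 in resistant 2. SNAI1 was thus the more abundant of the pair in parental cells and SNAI2 in resistant 2, while the resistant 1 libraries lay on both sides of 1. The reading for resistant 1 depends on the exon lengths, 1686 bases for SNAI1 and 3392 for SNAI2. Before division by length, SNAI2 was the higher in every resistant 1 library (mean normalized count 338 against 159).

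Vimentin was the most abundant of the 10 genes per kilobase of exon in every group. VIM (ENSG00000026025, chromosome 10, 17228259 to 17237593) had 154700.0, 139565 and 149888 normalized counts in parental cells, 257656, 251216 and 227391 for resistant 1, and 188096, 163707 and 169519 in resistant 2. Resistant 1 was above both other groups without overlap. The log2 fold change was 0.73 ± 0.09 in resistant 1 (limma, adjusted p = 3.36e-05), and resistant 2 was lower than resistant 1 by -0.50 ± 0.09 on the log2 scale (limma, adjusted p = 0.000603). Against parental cells resistant 2 differed by 0.23 ± 0.09 (limma, adjusted p = 0.0393). This last call was lost with quantile normalization, which lowers the median of all genes by 0.13 in each of the 2 comparisons with parental cells (VIM 0.04, limma, adjusted p = 0.6325). It was lost too with the compared groups alone or no filter (limma, adjusted p = 0.0927 and 0.0722), and without parental replicate 2 or 3, resistant 1 replicate 1 or 2, or resistant 2 replicate 1 or 3 (limma, adjusted p = 0.0517 to 0.13).

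E-cadherin was close to silent in DMSO in all 3 populations. CDH1 (ENSG00000039068, chromosome 16, 68737225 to 68835548) had 2, 0 and 2 reads in the parental libraries, 1, 1 and 1 in resistant 1, and 1, 0 and 2 in resistant 2. The OVOL genes were as low: OVOL1 (ENSG00000172818, chromosome 11, 65787022 to 65797219) had 1, 3 and 0 reads summed over the parental, resistant 1 and resistant 2 libraries, and OVOL2 (ENSG00000125850, chromosome 20, 17956979 to 18059188) 10, 2 and 2. TWIST1 (ENSG00000122691, chromosome 7, 19020991 to 19117672) had 0 reads in all 9 DMSO libraries, which allows up to 3 reads in each. These genes were below the filter, so that differences between the populations were not tested in DMSO. EMT factors therefore differed widely in level. Per kilobase of exon, parental DMSO libraries held 434.8 ± 72.2 normalized counts of ZEB1 and 419 ± 94.9 of SNAI1, within each other's spread. They held 186 ± 21.3 of ZEB2 and 144 ± 15.7 of SNAI2 (SD, n = 3). Before division by exon length the means were 3761 for ZEB1, 707 for SNAI1, 4650 for ZEB2 and 488 for SNAI2, so their order depends on the lengths.

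**Figure D2:**
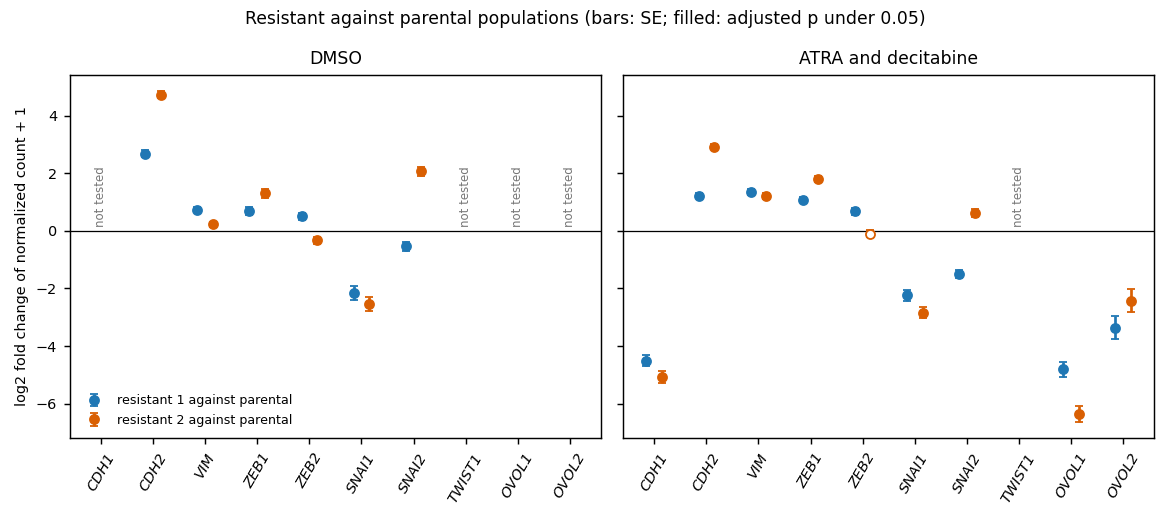
Log2 fold change of each resistant population against parental cells, with SE, in DMSO and under ATRA with decitabine (filled: adjusted p under 0.05). CDH2 is highest in resistant 2 in both panels, SNAI2 has opposite signs in the 2 resistant populations, and CDH1, OVOL1 and OVOL2 appear in the treated panel only, below 0.

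Overlapping genes could add reads to these values, since the strand setting of the counting is not given in the sources used here. VIM shares 641 exon bases with VIM-AS1 on the other strand, which had 104 to 277 reads per DMSO library beside 138476 to 296803 of VIM. ZEB1 shares 366 exon bases with ZEB1-AS1, which averaged 469.9 ± 27.8, 485 ± 48.0 and 401 ± 55.2 normalized counts in parental, resistant 1 and resistant 2 DMSO libraries. ZEB1-AS1 was called in neither comparison with parental cells (limma, adjusted p = 0.822 and 0.182), although ZEB1 was called in both. With quantile normalization it was called lower in resistant 2 (limma, adjusted p = 0.0117). ZEB2 shares 1299 exon bases with ZEB2-AS1, which had 2 to 40 reads per DMSO library. OVOL1 shares 1044 exon bases and CDH1 347 with antisense genes that have no symbol, and OVOL2 shares 59 with SNX5 on its own strand.

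Genes with profiles most like those of the members were sought over the 9 DMSO libraries among 13064 other protein-coding genes, by the root mean square difference of centred log2 levels, for the 4 members whose group means spanned at least 1. CDH2 was nearest to PARM1 (0.0998), DKK3 (0.144) and LTBP1 (0.155), of which PARM1 went from 199 ± 22.1 in parental cells to 1312 ± 74.4 and 5986 ± 703. ZEB1 was nearest to PPFIBP1 (0.0776), HIVEP2 (0.0938) and ZNF697 (0.0939). SNAI2 was nearest to PCDHB8 (0.110), TMTC2 (0.130) and NINJ2 (0.142), and SNAI1 to TFAP4 (0.201), LAMC3 (0.297) and TCOF1 (0.298). Likeness of level says nothing of shared control.

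Under ATRA with decitabine, 9 of the 10 genes had values that could be restored and tested. All 9 were called in resistant 1 against parental cells (4 higher and 5 lower), where 66.9% of all genes tested were called (34.7% higher and 32.2% lower). In resistant 2 it was 8 (4 higher and 4 lower), against 72.3% of all genes (38.1% higher and 34.2% lower). CDH2, VIM and ZEB1 were higher in both resistant populations. CDH1, OVOL1, OVOL2 and SNAI1 were lower in both.

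CDH1 had 1387, 1416 and 1404 normalized counts in treated parental libraries, 65.9, 65.7 and 52.0 in resistant 1, and 30.6, 39.1 and 56.8 in resistant 2. Resistant libraries were far below all parental ones. The log2 fold change was -4.50 ± 0.21 in resistant 1 (limma, adjusted p = 1.05e-08) and -5.07 ± 0.21 in resistant 2 (limma, adjusted p = 2.16e-09). The small difference between the resistant populations (-0.56 ± 0.21, limma, adjusted p = 0.0356) was lost in 7 of 9 fits that each left out 1 library (limma, adjusted p = 0.0563 to 0.119). No filter, the compared groups alone and quantile normalization lost it too (limma, adjusted p = 0.0594, 0.112 and 0.131). CDH2 had 1557, 1452 and 1447 normalized counts in parental, 3676, 3615 and 3126 in resistant 1, and 11398, 11704 and 10659 in resistant 2. The groups again did not overlap. Its log2 fold change was 1.22 ± 0.09 in resistant 1 (limma, adjusted p = 2.31e-07) and 2.92 ± 0.09 in resistant 2 (limma, adjusted p = 2.18e-10). Per kilobase, the ratio of CDH2 to CDH1 in treated libraries was 1.32 ± 0.07 in parental cells, 71.1 ± 3.41 for resistant 1 and 357 ± 116 in resistant 2 (SD, n = 3), so that N-cadherin and E-cadherin transcripts were near parity only in treated parental libraries.

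OVOL1 had 505, 429 and 415 normalized counts in treated parental libraries, 17.6, 13.4 and 14.5 in resistant 1, and 2.66, 5.76 and 5.57 in resistant 2. The 3 groups did not overlap. It was lower by a log2 fold change of -4.80 ± 0.26 in resistant 1 (limma, adjusted p = 3.44e-08), -6.36 ± 0.26 in resistant 2 (limma, adjusted p = 2.29e-09) and -1.56 ± 0.26 in resistant 2 against resistant 1 (limma, adjusted p = 0.000321). Every resistant 2 library was under the filter of 10, which OVOL1 passed only through the other groups. The OVOL1 calls in resistant 2 are thus a description. OVOL2 had 105, 106 and 95.8 in parental, 9.89, 15.6 and 4.59 in resistant 1, and 11.96, 17.3 and 28.98 in resistant 2. The resistant groups overlapped and both lay below the parental libraries. Resistant 2 was not called against resistant 1 (limma, adjusted p = 0.0584), but it was called higher with DESeq2 (adjusted p = 0.0421), with quantile normalization (limma, adjusted p = 0.0154), and without resistant 1 replicate 2 or resistant 2 replicate 1 (limma, adjusted p = 0.0153 and 0.0276). Its log2 fold change was -3.36 ± 0.39 in resistant 1 (limma, adjusted p = 1.27e-05) and -2.42 ± 0.39 in resistant 2 (limma, adjusted p = 0.000142).

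TWIST1 could not be tested under treatment, because its decimal points were restored with a posterior probability of 94.4%, under the 99% required. Its most probable reads were 170, 216 and 290 in parental libraries, 11, 33 and 22 in resistant 1, and 0, 6 and 13 in resistant 2. The smallest reads its digits allow are 17, 216 and 29 in parental cells and the same values as above in the resistant ones. With the smallest values, the parental and resistant 1 libraries overlap.

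ZEB1 had 2458, 2684 and 2581 normalized counts in treated parental libraries, 5837, 5521 and 5009.8 in resistant 1, and 9329.6, 9562 and 8148 in resistant 2. The order of the groups was that seen in DMSO, and they did not overlap. Its log2 fold change was 1.08 ± 0.09 in resistant 1 (limma, adjusted p = 7.78e-07) and 1.80 ± 0.09 in resistant 2 (limma, adjusted p = 8.07e-09). ZEB2 had 3149.6, 3119 and 3267 in parental, 5565, 4760.0 and 4999 in resistant 1, and 3449, 3049 and 2501 in resistant 2. Only resistant 1 stood apart, at 0.68 ± 0.11 (limma, adjusted p = 0.000202), and resistant 2 overlapped with parental cells (-0.10 ± 0.11, limma, adjusted p = 0.459). With quantile normalization ZEB2 was called lower in resistant 2 (-0.28, limma, adjusted p = 0.0366). ZEB1 exceeded ZEB2 per kilobase by a factor of 2.35 ± 0.13, 3.10 ± 0.23 and 8.79 ± 0.84 in parental, resistant 1 and resistant 2 libraries (SD, n = 3). Before division by exon length, ZEB2 had the higher mean in parental libraries (3179 against 2574) and ZEB1 in both resistant groups.

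SNAI1 had 3422, 3858 and 3853 normalized counts in treated parental libraries, 553, 907 and 963 in resistant 1, and 582, 435 and 542 in resistant 2. Both resistant groups were below the parental one, by log2 fold changes of -2.24 ± 0.19 (limma, adjusted p = 9.55e-07) and -2.84 ± 0.19 (limma, adjusted p = 8.77e-08). Resistant 2 was lower than resistant 1 (-0.60 ± 0.19, limma, adjusted p = 0.0165). This call was lost without resistant 1 replicate 2 or 3 or resistant 2 replicate 2 (limma, adjusted p = 0.0673 to 0.0707). It was lost as well with the compared groups alone (limma, adjusted p = 0.0662). SNAI2 had 1179, 999 and 889 in parental, 319, 398 and 354 in resistant 1, and 1357, 1715 and 1665 in resistant 2. As in DMSO, resistant 1 was the lowest group (-1.51 ± 0.14, limma, adjusted p = 1.97e-06) and resistant 2 the highest (0.63 ± 0.14, limma, adjusted p = 0.00156). The SNAI2 to SNAI1 ratio per kilobase was 0.138 ± 0.029, 0.229 ± 0.053 and 1.55 ± 0.40 (SD, n = 3), so that the order of the pair in resistant 2 was that of DMSO.

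VIM had 51325, 48642 and 50219 normalized counts in treated parental libraries, 142835, 116153 and 126217 in resistant 1, and 137958, 107817 and 105662 in resistant 2. The resistant groups overlapped each other and were both above parental cells. Its log2 fold change was 1.35 ± 0.11 in resistant 1 (limma, adjusted p = 4.98e-07) and 1.22 ± 0.11 in resistant 2 (limma, adjusted p = 7.67e-07). The difference between resistant 2 and resistant 1, -0.14 ± 0.11, did not pass (limma, adjusted p = 0.282). It was called with quantile normalization (-0.28, limma, adjusted p = 0.0213) and without resistant 2 replicate 1 (-0.26, limma, adjusted p = 0.0213). In that comparison 57.6% of all genes were called (28.9% higher and 28.7% lower), and 7 of the 9 members: CDH2, ZEB1 and SNAI2 higher and CDH1, ZEB2, SNAI1 and OVOL1 lower in resistant 2. In DMSO it was 5 of 6, against 53.4% of all genes (26% higher and 27.4% lower).

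**Figure D3:**
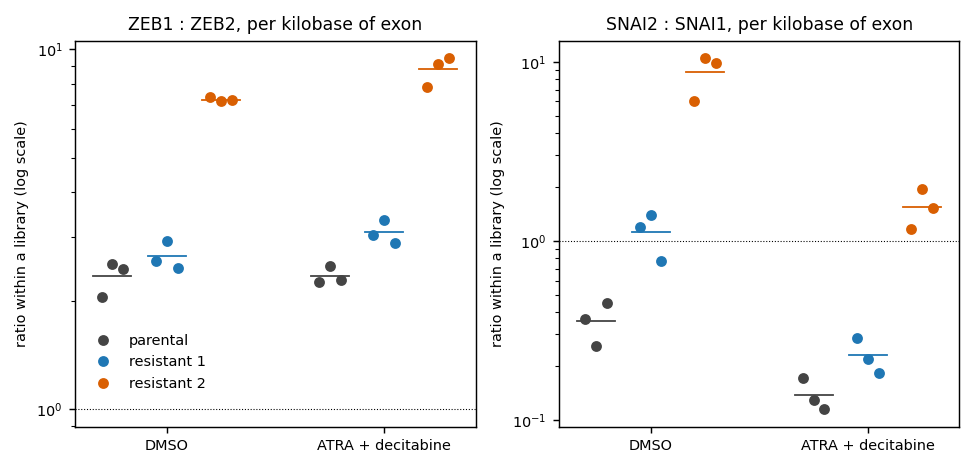
Ratio of ZEB1 to ZEB2 and of SNAI2 to SNAI1 per kilobase of exon within each library, on a log scale, with points for libraries, short lines for means and a dotted line at 1. Resistant 2 has the highest ratios of both pairs in both treatments, with 7.24 and 8.76 on average in DMSO.

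The response to ATRA with decitabine was compared within each population on the log2(CPM + 1) scale, which understates changes of genes near 0. In parental cells 65.5% of all genes tested were called (33.2% higher and 32.4% lower). It was 27.4% in resistant 1 (15% higher and 12.4% lower) and 18.7% in resistant 2 (10.6% higher and 8.02% lower). Of the 9 members tested, CDH1, CDH2, SNAI1, SNAI2, OVOL1 and OVOL2 rose and VIM, ZEB1 and ZEB2 fell in parental cells. In resistant 1, 4 rose and 3 fell, and in resistant 2, 3 rose and 4 fell. The OVOL calls in the resistant populations depended on the fit. OVOL1 in resistant 1 (limma, adjusted p = 0.0282) was lost without DMSO replicate 1 or 2 or any 1 of the treated replicates of resistant 1 (limma, adjusted p = 0.0579 to 0.0842). OVOL2 in resistant 1 (limma, adjusted p = 0.0712) was called higher by edgeR on reads (adjusted p = 0.00422), and with a pseudocount of 0.5 or 0.1 (limma, adjusted p = 0.0455 and 0.00849). It was called too without treated replicate 3 of resistant 1 or of resistant 2 (limma, adjusted p = 0.0414 and 0.0335). OVOL1 in resistant 2 (limma, adjusted p = 0.564) was called higher by edgeR (adjusted p = 0.0127) and with a pseudocount of 0.1 (limma, adjusted p = 0.0252). CDH1, OVOL1 and OVOL2 passed the filter only through treated libraries, so their calls are a description. The treated and DMSO libraries of a population came as separate tables, and a batch by treatment cannot be told apart from the treatment.

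CDH1 went from 4 reads over the 3 parental DMSO libraries to 5006 over the 3 treated ones. Scaled to depth that is 861-fold (exact 95% interval 336 to 3160, for counting error only). In resistant 1 it went from 3 to 187 reads, 52.3-fold (17.6 to 256), and in resistant 2 from 3 to 108 reads, 31.8-fold (10.6 to 157). The treated level was 10.2 ± 0.11 CPM in parental cells, 0.422 ± 0.049 for resistant 1 and 0.283 ± 0.091 in resistant 2 (SD, n = 3). Every treated library thus had more CDH1 reads than any DMSO library, and the treated resistant libraries held a small part of the parental level. OVOL1 went from 1 to 1601 reads in parental cells, 1101-fold (197 to 43513), from 3 to 47 in resistant 1, 13.2-fold (4.23 to 66.1), and from 0 to 12 in resistant 2, at least 1.18-fold against a floor of 3 counts per library. OVOL2 went from 10 to 364 reads in parental cells, 25.0-fold (13.5 to 52.6), from 2 to 29 in resistant 1, 12.2-fold (3.08 to 105), and from 2 to 50 in resistant 2, 22.1-fold (5.81 to 188).

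SNAI1 rose in all 3 populations. It went from 6.27 ± 1.43 to 27.1 ± 1.81 CPM in parental cells (1.97 ± 0.19, limma, adjusted p = 8.65e-08), from 1.38 ± 0.45 to 5.59 ± 1.61 in resistant 1 (1.45 ± 0.19, limma, adjusted p = 2.24e-05) and from 1.03 ± 0.16 to 3.50 ± 0.56 in resistant 2 (1.14 ± 0.19, limma, adjusted p = 0.000372). No treated library overlapped with the DMSO libraries of its population. VIM fell in all 3, from 1313 ± 66.5 to 365 ± 9.68 CPM in parental cells (-1.84 ± 0.10, limma, adjusted p = 1.39e-10), from 2135 ± 137 to 886 ± 85.1 in resistant 1 (-1.27 ± 0.10, limma, adjusted p = 1.70e-07) and from 1484 ± 107 to 788 ± 129.8 in resistant 2 (-0.92 ± 0.10, limma, adjusted p = 1.05e-05). The repressor SNAI1 and the filament gene VIM, both known from the mesenchymal state, thus moved in opposite directions.

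ZEB2 fell by like amounts, from 41.2 ± 4.66 to 23.2 ± 0.52 CPM in parental cells (-0.80 ± 0.11, limma, adjusted p = 7.97e-06), from 57.6 ± 3.37 to 35.3 ± 2.51 in resistant 1 (-0.69 ± 0.11, limma, adjusted p = 0.000205) and from 31.7 ± 3.87 to 20.2 ± 3.25 in resistant 2 (-0.63 ± 0.11, limma, adjusted p = 0.000696). ZEB1 went from 33.4 ± 5.51 to 18.8 ± 0.83 CPM in parental cells (-0.78 ± 0.12, limma, adjusted p = 2.01e-05) and from 52.9 ± 6.88 to 37.7 ± 2.26 in resistant 1 (-0.47 ± 0.12, limma, adjusted p = 0.00705). In all 3 populations the treated libraries were below the DMSO libraries of the same population for both ZEB genes. In resistant 2, ZEB1 went from 79.2 ± 10.3 to 60.5 ± 4.64 (-0.38 ± 0.12, limma, adjusted p = 0.0348), a call lost without DMSO replicate 1 or 2 or treated replicate 2 or 3 of resistant 2 (limma, adjusted p = 0.0542 to 0.146).

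CDH2 rose in parental cells from 3.03 ± 0.28 to 10.8 ± 0.46 CPM (1.56 ± 0.09, limma, adjusted p = 2.13e-10). In resistant 1 it went from 19.1 ± 2.42 to 24.0 ± 1.72 (0.31 ± 0.09, limma, adjusted p = 0.0168), a call lost without DMSO replicate 3 or treated replicate 1 or 2 of resistant 1 (limma, adjusted p = 0.0609 to 0.0874). In resistant 2, at 77.8 ± 5.42 and 75.6 ± 2.95, no change was called (-0.04 ± 0.09, limma, adjusted p = 0.868). Treated parental cells thus had more N-cadherin and more E-cadherin transcript than untreated ones. SNAI2 rose in parental cells from 4.32 ± 0.47 to 7.46 ± 1.08 CPM (0.66 ± 0.13, limma, adjusted p = 0.000266) and fell in resistant 2 from 17.6 ± 2.66 to 10.6 ± 1.19 (-0.68 ± 0.13, limma, adjusted p = 0.0014). In resistant 1 its values were 2.94 ± 0.35 and 2.46 ± 0.29 (-0.19 ± 0.13, limma, adjusted p = 0.326).

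**Figure D4:**
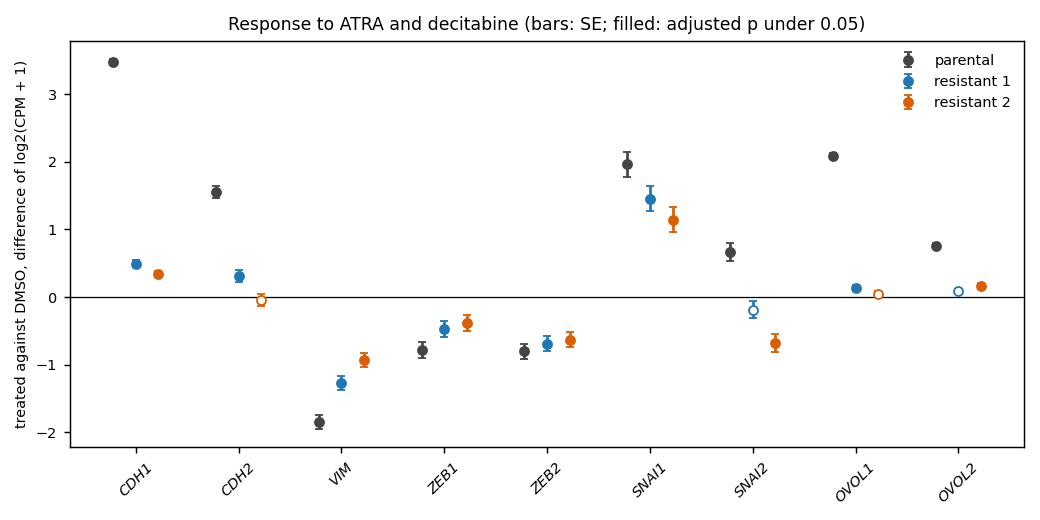
Difference of log2(CPM + 1) between treated and DMSO libraries of each population, with SE, for 9 genes (filled: adjusted p under 0.05). CDH1, CDH2 and OVOL1 are highest in parental cells at 3.47, 1.56 and 2.09, SNAI1 is above 0 and VIM, ZEB1 and ZEB2 are below 0 in all 3 populations.

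The difference of the responses was tested directly. Against the parental response, 6 of 9 members differed in resistant 1 and 7 of 9 in resistant 2, where 44.2% (20.7% higher and 23.5% lower) and 49.7% (23.6% higher and 26.1% lower) of all genes were called. The 2 differences share the parental libraries. Both counts include CDH1, OVOL1 and OVOL2, which were near 0 in DMSO, so that on this scale their differences mainly restate the treated levels. With edgeR on reads, 5 of 9 members differed in resistant 1 and 4 of 9 in resistant 2. CDH2 rose less in resistant 1 (-1.24 ± 0.13, limma, adjusted p = 8.80e-07) and in resistant 2 (-1.60 ± 0.13, limma, adjusted p = 3.71e-08), and CDH1 likewise (-2.98 ± 0.06 and -3.13 ± 0.06). VIM fell less in resistant 1 (0.57 ± 0.15, limma, adjusted p = 0.00458) and resistant 2 (0.92 ± 0.15, limma, adjusted p = 7.13e-05). For SNAI2 the difference was -0.85 ± 0.18 in resistant 1 (limma, adjusted p = 0.00126) and -1.34 ± 0.18 in resistant 2 (limma, adjusted p = 1.51e-05). The difference was -1.96 and -2.05 for OVOL1 and -0.67 and -0.59 for OVOL2. With edgeR on reads, OVOL2 was called in neither population and OVOL1 was not called in resistant 2 (adjusted p = 0.58 and 0.916 for OVOL2 and 0.951 for OVOL1). SNAI1 was called in resistant 2 at -0.82 ± 0.26 (limma, adjusted p = 0.0155), but not with a pseudocount of 0.5 or 0.1 (limma, adjusted p = 0.072 and 0.281) nor with edgeR (adjusted p = 0.35). In resistant 1 the SNAI1 difference of -0.51 was called, of the fits run, only with the replicate block within the resistant populations (limma, adjusted p = 0.0347), in which DMSO and treated libraries of 1 number form a pair.

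ZEB1 and ZEB2 were not called in either difference (0.31 ± 0.17 and 0.41 ± 0.17 for ZEB1, 0.11 ± 0.16 and 0.17 ± 0.16 for ZEB2; limma, adjusted p = 0.149, 0.0548, 0.622 and 0.406). The ZEB1 difference in resistant 2 was called with a pseudocount of 0.5 or 0.1 (limma, adjusted p = 0.0493 and 0.0457). It was called too without parental DMSO replicate 1, resistant 1 DMSO replicate 2 or 3, resistant 2 DMSO replicate 1 or resistant 2 treated replicate 3 (limma, adjusted p = 0.0164 to 0.0495), and with the same replicate block (limma, adjusted p = 0.0190). Between the resistant populations 0 of 9 members differed in response by limma or by edgeR, where limma called 4.48% of all genes (1.49% higher and 3% lower), and 4 of 9 had an unadjusted p under 0.05. The replicate block within the resistant populations changed this: 3 of 9 were called, and 2018 of all genes where there had been 881. With the block, CDH2 (-0.35, limma, adjusted p = 0.0258) and SNAI2 (-0.49, limma, adjusted p = 0.0317) were lower in resistant 2 minus resistant 1 and VIM was higher (0.35, limma, adjusted p = 0.0486).

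Other genes of the EMT program were taken from fixed lists, whose counts are to be read against the 29.3% higher and 26.6% lower of all genes in resistant 1 and the 32.1% and 29.8% in resistant 2. Of 24 mesenchymal-state genes tested in DMSO, 16 were higher and 4 lower in resistant 1 and 22 higher and 0 lower in resistant 2, with median log2 fold changes of 1.30 and 2.49. The protease gene MMP2 went from 3.64 ± 1.39 normalized counts in parental cells to 998 ± 40.8 in resistant 1 and 110687 ± 33354 in resistant 2, and the matrix gene SPARC from 2.07 ± 1.80 to 8291 ± 223 in resistant 1. MMP2 and SPARC averaged under the filter of 10 in parental cells and passed it only through resistant libraries, so their higher calls are a description. Of 17 epithelial genes known to be repressed by ZEB and SNAI factors, 3 were higher and 11 lower in resistant 1 and 5 higher and 10 lower in resistant 2, with medians of -0.87 and -1.21. Claudin 4 (CLDN4) stood at 2067 ± 654, 7147 ± 1822 and 39.7 ± 10.8, and the adaptor subunit gene AP1M2 at 1326 ± 244, 234 ± 34.8 and 153 ± 62.2. EPCAM, also of this list, passed the filter only through parental libraries. Genes that passed only where they were high could hardly be called in the other direction. The counts of this and the other lists include such genes.

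Of 14 other cadherins tested in DMSO, 6 were higher and 6 lower in resistant 1 and 5 higher and 7 lower in resistant 2. CDH8, a type II cadherin, went from 3.48 ± 3.27 in parental cells to 14130 ± 659 in resistant 1 and stood at 9.79 ± 5.81 in resistant 2. CDH4 (R-cadherin) went from 3.40 ± 2.14 to 1139 ± 192 and 116 ± 24.7, and CDH10 from 3433 ± 253 to 113 ± 4.18 in resistant 1. CDH8 and CDH4 averaged under the filter of 10 in parental cells and passed it through resistant libraries, so their higher calls are a description. In resistant 2, CDH11 (OB-cadherin) fell from 140324 ± 15338 to 8786 ± 1938 and CDH13 (T-cadherin) rose from 13075 ± 1770.1 to 115130 ± 11816. Of 14 catenins and nectins, 6 and 5 were higher and 3 and 4 lower, 9 in each population and so near the 55.9% and 61.9% of all genes called, with the delta-catenin CTNND2 at 3675 ± 104, 329.8 ± 1.39 and 10.4 ± 6.10.

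Of 17 other EMT-inducing transcription factors, 9 were higher and 7 lower in resistant 1 and 7 higher and 5 lower in resistant 2. HMGA2, a chromatin protein, went from 2.41 ± 1.73 in parental cells to 716 ± 89.3 and 145 ± 56.6, the homeobox factor PRRX1 from 6.79 ± 2.90 to 442 ± 78.9 in resistant 2, and TCF4 from 1799.8 ± 248 to 21872 ± 1366 there. HMGA2 and PRRX1 likewise averaged under the filter in parental cells and passed it through resistant libraries, so their higher calls are a description. Of 18 TGF-beta pathway genes, 7 were higher and 7 lower in resistant 1 and 13 higher and 1 lower in resistant 2. The receptor gene TGFBR1 rose in resistant 1 from 16709 ± 2006 to 159464 ± 13474, and TGFBR2 in resistant 2 from 2583 ± 276 to 25246 ± 3618. Of 23 corepressors and turnover factors, 4 were higher and 11 lower in resistant 1 and 3 higher and 13 lower in resistant 2, with the methyltransferase gene EZH2 at 12164 ± 849, 3418 ± 357 and 2309 ± 105. Of 11 other filament and lamin genes, 2 were higher in each and 6 and 9 lower, with lamin B1 (LMNB1) at 25796 ± 2700.2, 6089 ± 581 and 4702 ± 891.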

How the data were processed

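RNA from 18 libraries was sequenced with a stranded mRNA kit, per the labels' protocols. FastQC, MultiQC, STAR, featureCounts and DESeq2 with GRCh38 are named in the submitters' processing notes, without versions or the strand setting. The authors deposited 1 table of normalized signal for the DMSO libraries, in which whole reads could be recovered for 100% of values within 0.01 of a read. The other table, of the treated libraries, was deposited by the authors with its decimal points lost (unit other). These were restored with a negative binomial model that uses the DMSO reads, keeping genes at a posterior of at least 99%: 19514 of 25151 genes at the filter (77.6%), but 39.9% of those with a mean level under 30. Removing the decimal points of the DMSO table and restoring them gave 3 genes with a wrong value among 16375 resolved. That check is not independent, because it used the treated levels, which had themselves been restored with the DMSO reads. It therefore does not measure the error rate of the treated values. Genes were named with GENCODE 29.

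Populations were compared within a table on log2(normalized count + 1), for genes with at least 10 in at least 3 libraries, and responses on log2(CPM + 1) of reads scaled by TMM over all libraries, where CPM was computed from the recovered reads. The tests were limma 3.58.1 with an intensity trend (R 4.3.3), with Benjamini-Hochberg adjusted p under 0.05 over all genes tested, and they were tested on simulated data. Alternatives used edgeR 4.0.16, DESeq2 1.42.0, other pseudocounts, filters and normalizations, and left out each library in turn. DMSO and treated libraries of 1 population with the same number in the labels correlated in their deviations from group means at 0.39 to 0.87 in resistant 1 and 0.75 to 0.86 in resistant 2 (3 pairs each), and at -0.24 to 0.47 in parental cells. The numbers were thus taken to pair libraries within each resistant population, from the data and not from a statement in the labels, and a fit with these pairs as a block was added after seeing the data. The 10 genes, the lists and the tests were chosen with earlier results of these data known. All 10 genes are named in each comparison. From each list, genes are taken from the 3 called genes with the largest fold change in a comparison, at a mean of at least 50 normalized counts or 0.5 CPM.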

Additional observations from a re-analysis of the deposited data

Results flagged for a closer look

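Responses to ATRA with decitabine that differed between a resistant population and parental cells, by the test of the difference itself (limma, adjusted p under 0.05), were 13 among the 10 genes, TWIST1 not being tested. In resistant 1 minus parental, the difference of log2(CPM + 1) was -2.98 for CDH1, -1.24 for CDH2, 0.57 for VIM, -0.85 for SNAI2, -1.96 for OVOL1 and -0.67 for OVOL2. In resistant 2 minus parental it was -3.13 for CDH1, -1.60 for CDH2, 0.92 for VIM, -0.82 for SNAI1, -1.34 for SNAI2, -2.05 for OVOL1 and -0.59 for OVOL2. The SNAI1 difference was not called with a pseudocount of 0.5 or 0.1, nor with edgeR. CDH1, OVOL1 and OVOL2 had at most 5 reads in any DMSO library, so their differences mainly restate the treated levels. For OVOL2 the ratio of treated to DMSO reads, scaled to depth, was 25.0 in parental and 22.1 in resistant 2 cells. VIM alone of the genes flagged had a difference above 0, having fallen by more in parental cells.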

How the results depend on the processing

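Of the alternatives on single genes of the 10, 2148 kept direction and side of the threshold, 49 lost the call, 26 gained one and 6 changed sign. With a stricter posterior minimum in the restoration, 5 genes were tested. The calls were then 5, 4 and 4 in the treated comparisons of resistant 1 with parental, resistant 2 with parental and resistant 2 with resistant 1, 5 and 4 in the responses of parental and resistant 2 cells, and 2 and 3 in the differences of resistant 1 and resistant 2 from parental; fewer genes were tested. With edgeR, 4 of 9 differed in response between resistant 2 and parental cells, and the cause was not tested. Leaving out 1 library gave 5 to 6 calls for resistant 1 and 4 to 6 for resistant 2 against parental in DMSO, 5 between the resistant populations, and 9, 8 and 5 to 8 in the treated libraries. It gave 9, 5 to 8 and 6 to 7 in the responses of parental, resistant 1 and resistant 2 cells, and 6, 7 to 8 and 0 in their differences.

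No value that changed sign was called in either fit, and each is given with its range over fits without 1 library. ZEB2 in treated resistant 2 against parental ran from -0.2027 to 0.02912, above 0 without resistant 2 replicate 3. CDH2 in the response of resistant 2 ran from -0.07056 to 0.01697, above 0 without its DMSO replicate 1. In the difference between the resistant responses, ZEB1 ran from -0.003242 (without resistant 2 DMSO replicate 3) to 0.1957, and ZEB2 from -0.04975 (without resistant 2 treated replicate 1) to 0.1735, with -0.03489 without resistant 2 DMSO replicate 3. OVOL1 there was 1.54 with edgeR. ZEB1-AS1 in DMSO resistant 1 ran from -0.02463 (without resistant 1 replicate 2) to 0.1184 and was -0.21 with quantile normalization, and ZEB2-AS1 in DMSO resistant 2 ran from -0.8455 to 0.2435 (without resistant 2 replicate 3). Over all genes, the difference between the resistant responses was called for 881 by limma, 562 by edgeR and 383 with the stricter restoration. Libraries with the same replicate number correlated over 0.1 in 2 of 9 pairs in DMSO and 4 of 9 under treatment, so the numbers were not taken as pairing populations. Between resistant 1 and resistant 2, the same-number pairs were all positive, at 0.0855 to 0.3758 in DMSO and 0.0902 to 0.249 under treatment. A block for the resistant populations alone was not fitted in their direct comparison. With the number as a replicate block over all populations, ZEB2 in DMSO resistant 2 against parental, at -0.33, had adjusted p = 0.0592 (limma). With the replicate block within the resistant populations, chosen after seeing the data, 3 members differed between the resistant responses, and SNAI1 in resistant 1 minus parental and ZEB1 in resistant 2 minus parental gained a call; it changed no other call of the 10 genes.
Low reads limit CDH1, OVOL1, OVOL2 and TWIST1 in DMSO, where no difference between populations was tested.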

Other observations

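Of 17 tested epithelial genes known to be repressed by ZEB and SNAI factors, 13 rose and 0 fell in parental cells, 14 and 0 in resistant 1, and 11 and 0 in resistant 2, with median differences of log2(CPM + 1) of 1.34, 0.58 and 0.48, where the medians of all genes were near 0. Of all genes tested, 33.2% rose and 32.4% fell in parental cells, 15% and 12.4% in resistant 1, and 10.6% and 8.02% in resistant 2. Listed genes near 0 in DMSO had little room to fall, so the counts of the list are a description. EPCAM, for example, averaged 3.90 and 3.88 normalized counts in resistant 1 and resistant 2 DMSO libraries. Desmoplakin (DSP), a protein of desmosomes, went from 2.88 ± 0.44 to 95.6 ± 13.3 CPM in parental cells, and from 3.35 ± 0.35 to 9.57 ± 1.86 in resistant 1 (SD, n = 3). The tight junction gene CLDN7 went from 0.786 ± 0.040 to 17.2 ± 1.92 CPM in resistant 1.

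Of 9 epithelial-state transcription and splicing factors tested, 7 rose and 2 fell in parental cells, 3 rose and 2 fell in resistant 1, and 3 rose and 1 fell in resistant 2. These counts are to be read against the shares of all genes just given for each response, with the same limit for genes near 0 in DMSO. The splicing regulator ESRP1 went from 0.927 ± 0.378 to 21.3 ± 3.26 CPM in parental cells and stood at 0.104 ± 0.020 and 0.359 ± 0.110 in resistant 1, where it was not called. The grainyhead factor GRHL3 rose in all 3, from 1.10 ± 0.39 to 19.1 ± 1.03 in parental cells, from 0.208 ± 0.027 to 9.84 ± 0.85 in resistant 1 and to 2.16 CPM in resistant 2. MIR200CHG, the host transcript of miR-200 family members, had 5, 7 and 4 reads in parental DMSO libraries, 1, 0 and 1 in resistant 1 and 0 in each of resistant 2.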
